A study of Mus musculus with 11 samples.

Results

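The heat shock chaperones described here are 10 genes taken by name: Hspa1a, Hspa1b, Hspa8, Hsph1, Hsp90aa1, Hsp90ab1, Dnajb1, Hspb1, Hspd1 and Hspe1. They were found in the table of heart counts through their Ensembl identifiers in GENCODE mouse release M21, by name and with no threshold on a measured value. All 10 were among the 22608 genes of the table and among the 11319 genes that passed the expression filter (an average of at least 1 log2 CPM over the 11 mice, where CPM are counts scaled to a common library size).

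Heat shock proteins are molecular chaperones, which bind unfolded or partly folded proteins and release them for folding, transport or degradation. HSP70 proteins work in cycles of ATP hydrolysis that J-domain (HSP40) partners start and HSP110 partners reset, HSP90 proteins mature kinases and receptors, small heat shock proteins hold unfolded clients and bind actin, and the chaperonin HSP60 with its lid HSP10 folds proteins inside mitochondria. Some members, such as Hspa8 and Hsp90ab1, are made in unstressed cells, whereas Hspa1a, Hspa1b and Dnajb1 are classical targets of heat shock factor 1 (HSF1), which binds heat shock elements in their promoters. In heart muscle, chaperones and their partners such as BAG3 are known for keeping sarcomere proteins folded under mechanical load.

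The study asked how JZL184, an inhibitor of the enzyme that degrades the endocannabinoid 2-AG, acts on a mouse model of Williams-Beuren syndrome (WBS), and the ventricles of 11 male mice on a C57BL/6J background, 8 to 16 weeks old, were sequenced. CD mice lack 1 of their 2 copies of the interval from Gtf2i to Fkbp6 in the germline, and WT mice were their littermates. Mice received daily injections of JZL184 at 8 mg/kg or of its vehicle (VEH) for 10 days, which gave 4 groups: WT VEH with 2 mice, and WT JZL184, CD VEH and CD JZL184 with 3 mice each. The labels call the VEH mice untreated. The methods place the last injection before a behavioural test, with heart tissue taken from some mice right after such a test, and do not tie these times to the sequenced hearts.

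Total counts ran from 69660329 to 92251550 per mouse, at which 3 counts correspond to between 0.0325 and 0.0431 CPM. Between 36.4% and 46.6% of counts per mouse came from the mitochondrial genome. The genotype labels were checked on the deleted interval (chr5:134237834-135350044, GRCm38), where all 14 genes tested had their 6 CD values below the 5 WT values. Cardiomyocyte markers were high in every mouse, and the atrial markers Sln and Bmp10 were at or near 0. Of the other atrial markers, Myl7 reached 0.521 CPM and Myl4 ran from 0.794 to 1.69 CPM. Nppa, which failing ventricles also make, ran from 49.2 to 220 CPM. The adipocyte markers were low, the highest being Cfd with up to 1.09 CPM. Each value comes from a separate mouse, and the chi-square per gene between mice of a group was at least 22.6, where sampling noise alone gives about 1. All positions are on GRCm38.

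Hspa1a (chr17:34969190-34972156) and Hspa1b (chr17:34956436-34959238) are neighbouring genes without introns on the minus strand. Of the 31-base stretches in the Hspa1a transcript, 63.8% also occur in Hspa1b, so that the split of reads between them is uncertain and their sum was tested as well. Of the other HSP70 and HSP110 members, Hspa8 lies at chr9:40800984-40810087 and Hsph1 at chr5:149614287-149636376. The HSP90 genes are Hsp90aa1 (chr12:110690605-110702728) and Hsp90ab1 (chr17:45567775-45573271). Dnajb1 lies at chr8:83608193-83612653 and Hspb1 at chr5:135887919-135889563, which is 538 kb beyond the end of the deleted interval. Hspd1 (chr1:55077835-55088243, minus strand) and Hspe1 (chr1:55088132-55091307, plus strand) are arranged head to head and overlap at their starts. Stretches shared with other genes also made up 59.4% of the Hspa8 transcript, 62.9% of Hsp90aa1, 56.7% of Hspb1 and 55.8% of Hspd1. They made up 14.1% of Hspe1, 16.6% of Hsp90ab1, 0.441% of Dnajb1 and 0% of Hsph1.

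The RefSeq promoter windows (250 bases before to 50 bases after a start, GRCm38.p6) were searched on both strands for the heat shock element GAANNTTCNNGAA. It has 9 fixed letters, and up to 1 of them was also allowed to differ. An exact match was found in 0.603% of the 32851 windows of all genes and a match with up to 1 different letter in 7.22%. The table holds windows for 7 members, which leaves out Hspa8, Hsp90aa1 and Hsp90ab1. An exact match was found for 3 members (Hsph1, Hspd1 and Hspe1) and a match with up to 1 different letter for 6, all but Dnajb1. Stretches that hold matches are printed 5′ to 3′ on the strand of the gene, because the paired genes Hspa1a and Hspa1b, and Hspd1 and Hspe1, are set against each other in the results. Capitals mark the bases covered by matches, of which overlapping ones run together. For Hspa1a (chr17:34972157-34972306), Hspa1b (chr17:34959239-34959388) and Hspb1 (chr5:135887769-135887918), the 150 bases before the start are given. The stretches with an exact match of Hsph1 (chr5:149636282-149636311) and Hspe1 (chr1:55088053-55088082) lie in an untranslated first exon of Hsph1 transcripts and of a longer Hspd1 transcript, and 30 bases are given for each. Hsph1 also had inexact matches further upstream, which are not printed.
Hspa1a: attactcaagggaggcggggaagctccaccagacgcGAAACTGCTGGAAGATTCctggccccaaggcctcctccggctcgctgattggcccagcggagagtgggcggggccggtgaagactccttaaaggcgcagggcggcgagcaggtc
Hspa1b: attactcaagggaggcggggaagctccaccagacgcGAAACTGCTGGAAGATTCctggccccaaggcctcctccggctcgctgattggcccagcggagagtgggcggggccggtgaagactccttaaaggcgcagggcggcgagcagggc
Hspb1: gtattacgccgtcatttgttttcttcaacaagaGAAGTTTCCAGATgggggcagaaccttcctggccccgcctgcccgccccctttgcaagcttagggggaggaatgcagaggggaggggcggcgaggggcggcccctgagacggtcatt
Hsph1: aatgctGCAGATTCTGGAAAGTTCtcctca
Hspe1: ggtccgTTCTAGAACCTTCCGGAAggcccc
The windows of Hspa1a and Hspa1b differ at 4 of 300 bases, 1 of them within the stretch printed, and both carry the same element from 114 bases before the start. The 30 bases of Hspe1 are also found on the opposite strand in a window of Hspd1, and these windows of the 2 genes share 285 bases. A match describes letters and is no measured binding site.

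Per base of transcript, the members spanned a wide range of levels in these hearts. On the scale of counts per kilobase of the longest transcript, set to the same total per mouse as CPM over all genes with a length, the mean over the 11 mice was 703 ± 109 (SD, n = 11) for Hspa8, the constitutive HSP70, and 537 ± 103 for Hsp90ab1, the constitutive HSP90. Hspb1 (245 ± 47.9), Hspd1 (188 ± 36.6), Hspe1 (114 ± 10.1) and Hsp90aa1 (85.1 ± 18.6) followed. The lowest 4 were Hsph1 (14.4 ± 3.91), Hspa1a (12.5 ± 9.88), Hspa1b (11.6 ± 10.6) and Dnajb1 (11.3 ± 3.35). The levels of these 4 overlapped across mice, so that their order is not resolved.

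The Hspa1 pair varied most between mice of a group. The SD within groups on the log2 scale was 1.14 for Hspa1a and 1.31 for Hspa1b, larger than for 99.9% of the genes tested, whose median was 0.103. It was 0.36 for Hsph1, 0.34 for Hsp90aa1, 0.32 for Dnajb1 and 0.27 for Hspb1, which are larger than for 96.2% to 98.7% of genes. Hspe1, at 0.102, lay at the median of all genes. The precision of each comparison follows these values, and a difference that can be seen for Hspe1 would be lost in the spread of the Hspa1 genes.

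**Figure D1:**
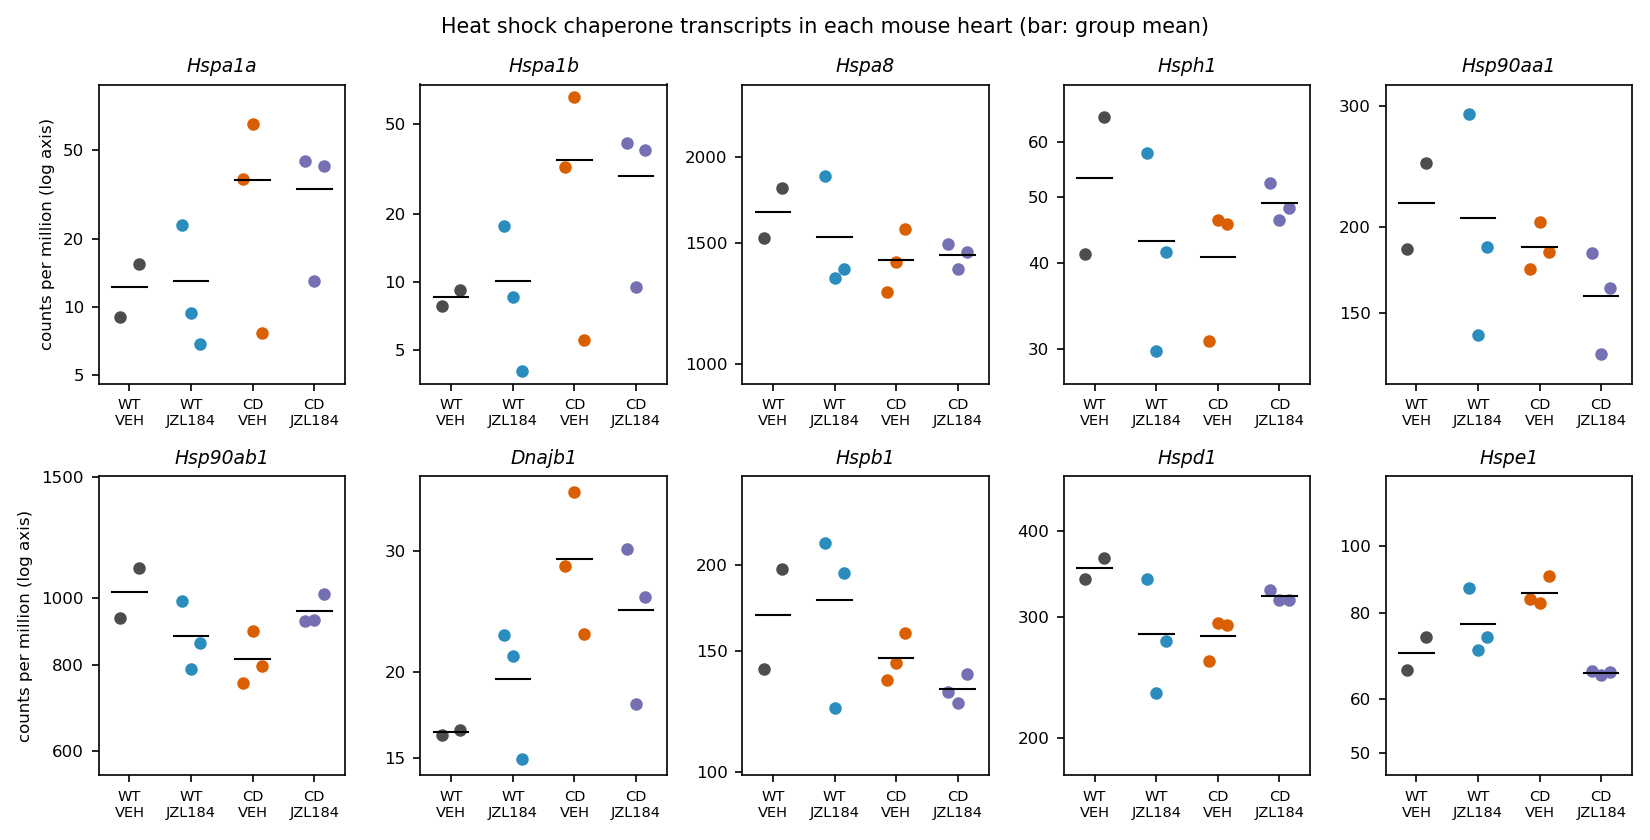
Level of each of the 10 chaperone transcripts in each mouse, in CPM on a log axis that differs between panels, with the mean of each group as a bar. Hspa1a and Hspa1b spread over 9.53-fold and 16.5-fold between mice, whereas Hspe1 spread over 1.39-fold and lay between 65.0 and 65.8 CPM in all 3 CD JZL184 mice.

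The groups were set against each other in 4 main ways. The genotype comparison is CD VEH relative to WT VEH, the WT drug comparison is WT JZL184 relative to WT VEH, the CD drug comparison is CD JZL184 relative to CD VEH, and the treated genotype comparison is CD JZL184 relative to WT JZL184. The genotype by JZL184 interaction is the CD drug effect minus the WT drug effect.

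In the genotype comparison, 2 of the 10 members were differentially expressed (edgeR quasi-likelihood test, Benjamini-Hochberg adjusted p under 0.05 over all genes tested), both of them upregulated: Dnajb1 and Hspe1. Over all genes tested 30.4% were called in this comparison, 15% upregulated and 15.4% downregulated, so that the count of members is no higher than that of genes in general. In the WT drug comparison, 0 of 10 members were called by edgeR, against 29.4% of all genes, and 1 member (Hspd1) had an unadjusted p under 0.05. DESeq2 called 1 member there, which was Hspd1. In the CD drug comparison, 1 member (Hspe1, downregulated) was called, against 33.8% of all genes (16.8% upregulated and 17% downregulated). In the treated genotype comparison, it was again 1 member (Hspe1, lower in CD), against 38.3%. In CD JZL184 set against WT VEH, 0 of 10 members were called by edgeR and 0 by DESeq2, against 0.186% of all genes, and 1 member (Dnajb1) had an unadjusted p under 0.05. The interaction was called for 3 members (Hsp90ab1, Hspd1 and Hspe1), against 51.5% of all genes. The comparisons share groups of mice, so they are not independent of each other.

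The median log2 fold-change of the 10 members was -0.21 in the genotype comparison, -0.00044 in the WT drug comparison and -0.15 in the CD drug comparison, beside medians of 0.0087, -0.0026 and -0.0024 over all genes tested. The median size of the change, without its sign, was 0.33, 0.18 and 0.23 for the members and 0.19, 0.18 and 0.17 for all genes. In CD JZL184 set against WT VEH, this size was 0.28 for the members and 0.082 for all genes. The lack of calls there does not place the members at the WT VEH level.

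**Figure D2:**
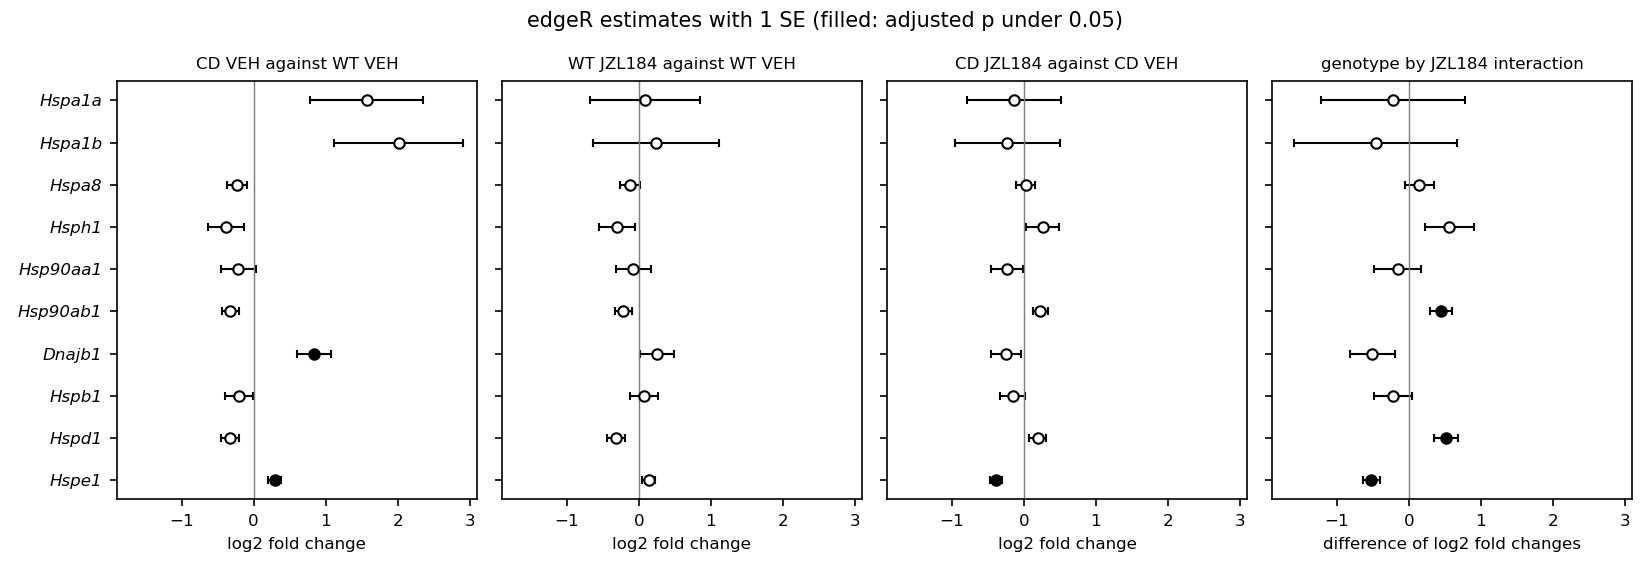
The log2 fold-change of each member with 1 SE in 3 comparisons, and the difference of the drug effects between genotypes in the fourth panel, with filled points for an edgeR adjusted p under 0.05. Dnajb1 and Hspe1 are filled in the first panel, 0 members in the WT drug comparison, Hspe1 in the CD drug comparison, and Hsp90ab1, Hspd1 and Hspe1 in the interaction.

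Hspa1a and Hspa1b encode the stress-inducible HSP70. Hspa1a had 9.10 and 15.6 CPM in WT VEH, 23.2, 9.40 and 6.85 CPM in WT JZL184, 37.3, 65.3 and 7.68 CPM in CD VEH, and 44.5, 13.1 and 42.5 CPM in CD JZL184. Hspa1b followed it mouse by mouse, with 7.82 and 9.22 CPM in WT VEH, 17.7, 8.57 and 4.01 CPM in WT JZL184, 32.1, 66.2 and 5.52 CPM in CD VEH, and 41.1, 9.44 and 38.2 CPM in CD JZL184. In 4 of the 6 CD mice the pair stood above every WT mouse, and the remaining CD mice, CD VEH E and CD JZL184 C, lay within the WT range. Summed, the pair ranged from 10.9 to 131 CPM over the 11 mice.

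These differences did not pass the threshold on the adjusted p, and the tests do not resolve them. In the genotype comparison the unadjusted edgeR p was 0.0685 for Hspa1a and 0.0444 for Hspa1b. The log2 fold-change in the genotype comparison was 1.57 (SE 0.78, edgeR adjusted p = 0.144) for Hspa1a and 2.02 (SE 0.90, edgeR adjusted p = 0.105) for Hspa1b, and the groups overlapped. For the sum of the pair it was 1.77 (SE 0.83, edgeR adjusted p = 0.122). Under JZL184 the CD hearts stood above the WT hearts by 1.35 (SE 0.67, edgeR adjusted p = 0.132) and 1.56 (SE 0.76, edgeR adjusted p = 0.123) on the log2 scale. In the drug comparisons the log2 fold-change of the sum was 0.15 (SE 0.80, edgeR adjusted p = 0.899) in WT and -0.18 (SE 0.69, edgeR adjusted p = 0.855) in CD hearts. Intervals of 1.96 SE for Hspa1a ran from -1.41 to 1.58 and from -1.41 to 1.14. A change of 2-fold in either direction lies inside these intervals. Without CD VEH mouse E, both genes were called in the genotype comparison (log2 fold-change 2.05, edgeR adjusted p = 0.0467 for Hspa1a, and 2.52, edgeR adjusted p = 0.0363 for Hspa1b). Without CD VEH mouse C, the log2 fold-changes were 0.85 (edgeR adjusted p = 0.414) and 1.13 (edgeR adjusted p = 0.328).

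Hspa8, the constitutive HSP70 and the most abundant member, varied far less. It had 1527 and 1802 CPM in WT VEH, 1880.4, 1335 and 1373 CPM in WT JZL184, 1271, 1409 and 1572 CPM in CD VEH, and 1495, 1373 and 1455 CPM in CD JZL184. The groups overlapped, and its log2 fold-change was -0.23 (SE 0.15, edgeR adjusted p = 0.238) in the genotype comparison and 0.024 (SE 0.13, edgeR adjusted p = 0.901) in the CD drug comparison. The Hspa1 pair amounted to between 0.79% and 9.33% of Hspa8 in counts, with a median of 1.64%.

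Hsph1, the HSP110 nucleotide exchange factor of HSP70, had 41.2 and 65.3 CPM in WT VEH, 57.9, 29.8 and 41.6 CPM in WT JZL184, 30.8, 46.3 and 45.6 CPM in CD VEH, and 52.3, 46.3 and 48.2 CPM in CD JZL184. The lowest CD JZL184 mouse and the highest CD VEH mouse both stood at 46.3 CPM. The log2 fold-change was -0.38 (SE 0.25, edgeR adjusted p = 0.266) in the genotype comparison and 0.26 (SE 0.23, edgeR adjusted p = 0.394) in the CD drug comparison. The difference of the drug effects was 0.56 (SE 0.34, edgeR adjusted p = 0.185), and it was called without WT JZL184 mouse A (0.84, edgeR adjusted p = 0.0373). It was lowest without WT VEH mouse D (0.19, edgeR adjusted p = 0.688).

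Of the HSP90 genes, which encode cytosolic chaperones of kinases and steroid receptors, the constitutive Hsp90ab1 had a drug effect that differed between genotypes. It had 934 and 1105 CPM in WT VEH, 991, 788 and 859 CPM in WT JZL184, 753, 896 and 796 CPM in CD VEH, and 925, 929.9 and 1013 CPM in CD JZL184. Every CD VEH mouse lay below both WT VEH mice and below every CD JZL184 mouse. The log2 fold-change was -0.32 (SE 0.11, edgeR adjusted p = 0.0511) in the genotype comparison, 0.23 (SE 0.10, edgeR adjusted p = 0.102) in the CD drug comparison, and -0.21 (SE 0.12, edgeR adjusted p = 0.176) in the WT drug comparison. None of these passed in the edgeR fit, whereas the interaction did (0.44, SE 0.15, edgeR adjusted p = 0.0308). The genotype comparison passed with DESeq2 (adjusted p = 0.0167) and, in edgeR, with the length offset (adjusted p = 0.0353), with only the compared groups (0.0458) and with robust empirical Bayes (0.0495). The interaction lost its call in 6 of the 11 fits that left out a mouse each, and without WT VEH mouse D it was 0.32 (edgeR adjusted p = 0.163).

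The stress-inducible Hsp90aa1 had 186 and 248 CPM in WT VEH, 292, 139 and 187 CPM in WT JZL184, 174, 203 and 184 CPM in CD VEH, and 183, 131 and 163 CPM in CD JZL184. All 4 groups overlapped with at least another group, the WT JZL184 mice covering nearly the whole range. The log2 fold-change was -0.22 (SE 0.25, edgeR adjusted p = 0.519) in the genotype comparison and -0.23 (SE 0.22, edgeR adjusted p = 0.430) in the CD drug comparison.

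Dnajb1, the J-domain partner that starts the ATP cycle of HSP70, was upregulated in CD VEH hearts. It had 16.2 and 16.5 CPM in WT VEH, 22.6, 21.1 and 15.0 CPM in WT JZL184, 28.5, 36.5 and 22.7 CPM in CD VEH, and 30.2, 17.9 and 25.7 CPM in CD JZL184. All 3 CD VEH mice lay above both WT VEH mice, and the CD JZL184 mice lay between these groups or within CD VEH. The log2 fold-change in the genotype comparison was 0.84 (SE 0.24, edgeR adjusted p = 0.0222), a 1.79-fold higher mean. It lost its call without WT VEH mouse C (log2 fold-change 0.83, edgeR adjusted p = 0.124) or D (0.85, 0.104), or without CD VEH mouse A (0.85, 0.0508) or C (0.64, 0.0589). The call was kept with the offset for transcript length described with Hspe1 (0.80, edgeR adjusted p = 0.0359). After JZL184 it differed by -0.25 (SE 0.21, edgeR adjusted p = 0.361) in CD hearts and by 0.26 (SE 0.24, edgeR adjusted p = 0.422) in WT hearts, and the difference of these effects was -0.51 (SE 0.31, edgeR adjusted p = 0.193).

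Hspb1, a small heat shock protein of muscle and vessel walls, had 141 and 197 CPM in WT VEH, 215, 124 and 194 CPM in WT JZL184, 136, 144 and 159 CPM in CD VEH, and 131, 126 and 139 CPM in CD JZL184. The 6 CD mice stayed between 126 and 159 CPM and the 5 WT mice between 124 and 215 CPM. Its log2 fold-change was -0.21 (SE 0.19, edgeR adjusted p = 0.427) in the genotype comparison and -0.43 (SE 0.17, edgeR adjusted p = 0.0679) in the treated genotype comparison. Without WT JZL184 mouse B, the latter was -0.64 (edgeR adjusted p = 0.00432), and without WT JZL184 mouse A it was -0.27 (edgeR adjusted p = 0.230).

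The mitochondrial chaperonin transcripts Hspd1 (HSP60, the folding chamber) and Hspe1 (HSP10, its lid) had drug effects that differed between genotypes, with opposite signs, and their genes share a promoter region. Hspd1 had 341 and 366 CPM in WT VEH, 341, 233 and 277 CPM in WT JZL184, 259, 294 and 292 CPM in CD VEH, and 329, 318 and 318 CPM in CD JZL184. The CD VEH mice lay below both WT VEH mice and below all CD JZL184 mice. Hspe1 had 66.1 and 73.9 CPM in WT VEH, 86.9, 70.7 and 73.8 CPM in WT JZL184, 83.9, 82.7 and 90.6 CPM in CD VEH, and 65.8, 65.0 and 65.7 CPM in CD JZL184. For this gene the CD VEH mice lay above both WT VEH mice and above all CD JZL184 mice, and the SD of the 3 CD JZL184 mice was 0.415 CPM.

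Hspe1 was upregulated in the genotype comparison (0.29 on the log2 scale, SE 0.09, edgeR adjusted p = 0.0291) and downregulated in the CD drug comparison (-0.39, SE 0.08, edgeR adjusted p = 0.00499). It was also lower in CD JZL184 than in WT JZL184 (-0.24, SE 0.08, edgeR adjusted p = 0.0339), and its difference of 0.14 (SE 0.09) in the WT drug comparison did not pass (edgeR adjusted p = 0.249). The drug effects differed between genotypes by -0.53 (SE 0.12, edgeR adjusted p = 0.00343). Leaving out a mouse, the call in the CD drug comparison and the interaction were kept in each fit. The call in the genotype comparison was lost without WT VEH mouse C (0.21, edgeR adjusted p = 0.230) or D (0.37, 0.0574) and without CD VEH mouse A (0.30, 0.0607) or E (0.25, 0.0953), and that in the treated genotype comparison in 4 of 6 fits, those without WT JZL184 mouse A (-0.14, edgeR adjusted p = 0.0925) or any of the 3 CD JZL184 mice (0.0784 to 0.0846). For Hspd1 the log2 fold-changes were -0.33 (SE 0.13, edgeR adjusted p = 0.0666) in the genotype comparison, -0.32 (SE 0.13, edgeR adjusted p = 0.0742) in the WT drug comparison and 0.19 (SE 0.11, edgeR adjusted p = 0.205) in the CD drug comparison. Its drug effects differed between genotypes by 0.51 (SE 0.17, edgeR adjusted p = 0.0247), a call that was lost without WT VEH mouse D (0.46, edgeR adjusted p = 0.0903) or CD VEH mouse A (0.46, edgeR adjusted p = 0.0558).

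Transcript length moved with these comparisons. Among all genes tested, the median log2 fold-change of the 1125 with the shortest transcripts was 0.22 in the genotype comparison and -0.23 in the CD drug comparison, and that of the 1125 with the longest was -0.21 and 0.19. The Hspe1 transcript (964 bases) is among the shortest, which reach 1488 bases, and the Hspd1 transcript has 2423 bases. With an offset for transcript length, the log2 fold-changes of Hspe1 were 0.041 (edgeR adjusted p = 0.781) in the genotype comparison, -0.11 (0.348) in the CD drug comparison, 0.0066 (0.960) in the treated genotype comparison and -0.035 (0.846) in the interaction, so that all 4 of its calls were lost. Under the same offset Hspd1 (-0.41, edgeR adjusted p = 0.0461) and Hsp90ab1 (-0.40, edgeR adjusted p = 0.0353) were called in the genotype comparison, and their interactions were larger.

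Within each mouse, the ratio of the chaperonin transcripts set WT VEH and CD JZL184 apart from WT JZL184 and CD VEH, while the groups within each of these pairs overlapped. The ratio was chosen after these values were seen and is given without a test. There were 19.4 and 20.2 Hspe1 counts per 100 Hspd1 counts in WT VEH and 20.01, 20.4 and 20.6 in CD JZL184. In WT JZL184 there were 25.5, 30.3 and 26.6, and in CD VEH 32.3, 28.1 and 31.03. The ratio thus stood near 20 in WT VEH and CD JZL184 and above 25 in both other groups. It sets a transcript of 964 bases against 1 of 2423 bases and is not corrected for transcript length. With the length offset the Hspe1 calls were lost, and the part of length in the ratio was not tested.

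**Figure D3:**
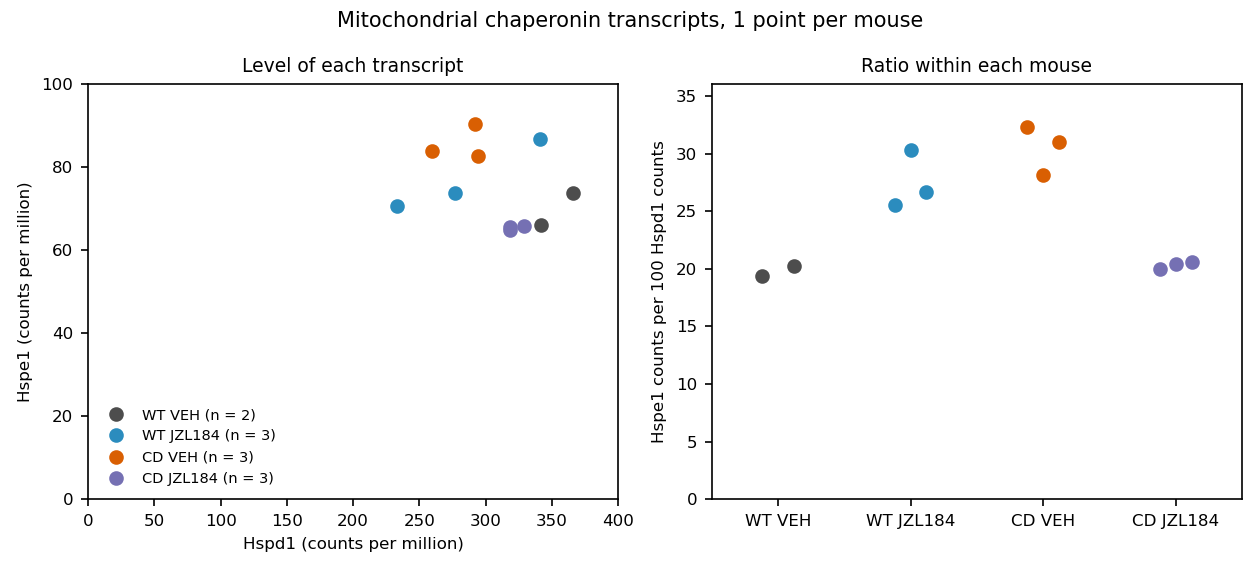
Left, Hspe1 against Hspd1 in CPM, 1 point per mouse and a colour per group, and right, Hspe1 counts per 100 Hspd1 counts in each mouse. The ratio is not corrected for transcript length. WT VEH and CD JZL184 mice lie between 19.4 and 20.6 per 100, and WT JZL184 and CD VEH mice between 25.5 and 32.3.

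Markers of other cell types moved with the same comparisons. Of 6 endothelial markers, 5 were higher in CD VEH and 6 in WT JZL184 than in WT VEH, and 5 were lower in CD JZL184 than in CD VEH. Their summed level ran from 533 to 539 CPM in WT VEH, 818 to 844 CPM in WT JZL184, 678 to 751 CPM in CD VEH and 523 to 610.1 CPM in CD JZL184. Of the 5 smooth muscle and pericyte markers tested, 4 were higher in CD VEH and in WT JZL184 and 3 lower in CD JZL184 than in CD VEH, with sums of 578 to 584, 830.2 to 897, 791 to 912 and 562 to 576 CPM in the same order. Of the 8 cardiomyocyte markers, 3 were lower in CD VEH and 4 in WT JZL184 than in WT VEH, and 3 were higher and 1 lower in CD JZL184 than in CD VEH, with sums of 40403 to 40963, 28333 to 38555, 34450.4 to 37376 and 37289.8 to 40881 CPM. When the offset for transcript length was used, 1 was lower in CD VEH and 2 in WT JZL184, and 2 were higher and 0 lower in the CD drug comparison. Of the 5 macrophage and lymphocyte markers tested, 4 were higher in CD VEH and in WT JZL184, and 4 lower in CD JZL184 than in CD VEH, with Cd3e at or near 0. Of the 6 fibroblast markers, 2 were higher in CD VEH and 3 in WT JZL184, and 2 were lower in CD JZL184 than in CD VEH. Of the 5 erythroid markers tested, 0 were called in the genotype or the WT drug comparison by edgeR or DESeq2 (4 and 0 at an unadjusted p under 0.05) and 5 were lower in CD JZL184 than in CD VEH. In the fit with the length offset, 1 of them was lower. Their sum reached 18838 CPM in CD VEH mouse A and stayed at or below 5513 CPM elsewhere. The only atrial marker tested, Nppa, had a log2 fold-change of -0.91 in the genotype comparison (SE 0.38, edgeR adjusted p = 0.0838) and was called lower there in the fit with the length offset. In the drug comparisons it was called by neither fit. Of the adipocyte markers, 0 passed the filter. In RNA from whole ventricles, fewer cells of a type and less RNA per cell cannot be told apart, and the part of these shifts in the values of the chaperones was not tested.

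Over the 11 mice the Hspa1 pair varied with Dnajb1, and other members varied with each other to differing degrees. Correlations of log2 CPM were computed for the 45 pairs of members, and 10 of them, all positive, had a permutation p adjusted over the 45 under 0.05 (100000 permutations of the mice, two-sided). Hspa1a and Hspa1b, which share reads, had r = 0.99 and rho = 0.99 (permutation p = 1e-05, the smallest these permutations can give, adjusted p = 0.00045). Dnajb1 followed them, with r = 0.89 and rho = 0.83 against Hspa1b (permutation p = 0.00046, adjusted p = 0.00432) and r = 0.78 without the 2 mice farthest from the median of Hspa1b. Centred on the group means, r was 0.93, so the mice with more Hspa1b also had more Dnajb1 within groups.

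Hspa1a had r = -0.061 with Hspa8, 0.17 with Hsp90aa1 and 0.20 with Hsp90ab1, and centred on the group means these were 0.23, 0.57 and 0.54. Among the 7 members other than Hspa1a, Hspa1b and Dnajb1, the 21 values of r ran from -0.36 to 0.88 over all mice. After centring they ran from 0.67 to 0.95. All 7 were higher in WT VEH D than in WT VEH C, and all 7 were highest in A and lowest in B among WT JZL184 mice. In CD VEH the order differed between genes, with Hspa8 highest in mouse E and Hsp90aa1 in mouse C. The share of all genes with such values was not computed. Hspd1 followed Hsp90ab1 (r = 0.87, rho = 0.90, permutation p = 0.00036, adjusted p = 0.00432, and r = 0.81 without the 2 mice farthest from the median of Hsp90ab1) and Hsph1 (r = 0.88, rho = 0.75, permutation p = 0.00032, adjusted p = 0.00432, and r = 0.70 without 2 mice). Hsp90aa1 followed Hspb1 (r = 0.84, rho = 0.91, permutation p = 0.00048, adjusted p = 0.00432, and r = 0.72 without 2 mice). The relation of Hspa8 to Hsp90aa1 rested on the extreme mice, since r fell from 0.82 to 0.40 without 2 of them. Hspd1 and Hspe1 had r = -0.21 over all mice and 0.84 after centring on the group means. The mice share libraries and depth across all 10 genes, and the groups contribute to each r.

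**Figure D4:**
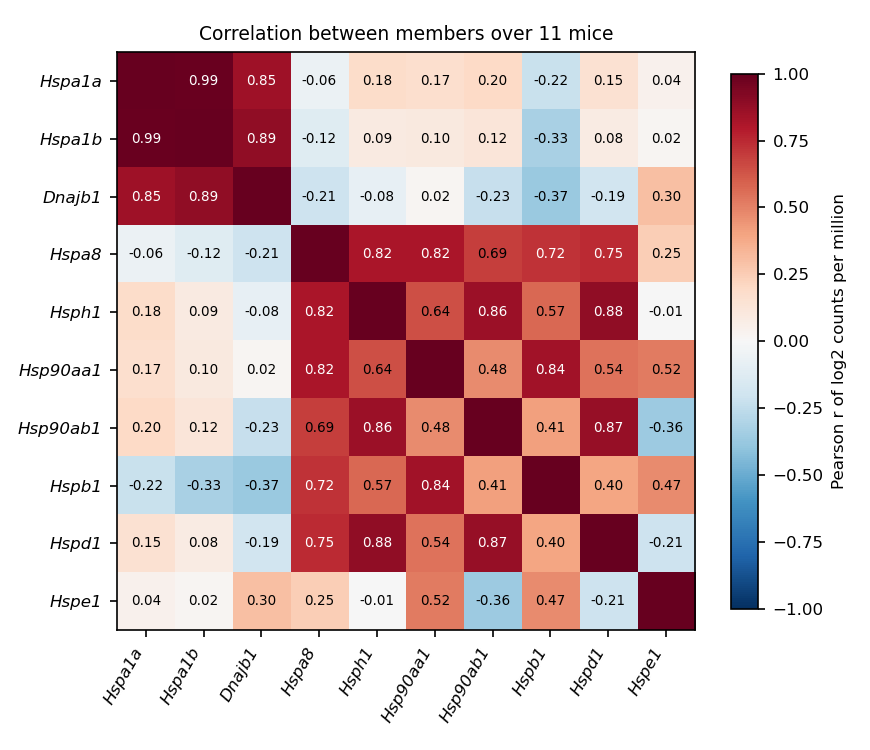
Pearson r of log2 CPM between each pair of members over the 11 mice, coloured from -1 to 1. Hspa1a, Hspa1b and Dnajb1 form a block of 0.85 to 0.99 apart from the other members, and Hspe1 has r = -0.36 with Hsp90ab1 and -0.21 with Hspd1.

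The other genes of the chaperone network were taken from lists of the pathway, 95 genes in all, not counting the immediate early genes. Their counts stand beside shares of all genes tested of 15% higher and 15.4% lower in the genotype comparison, 15.4% and 14% in the WT drug comparison, and 16.8% and 17% in the CD drug comparison. Hsf1, the heat shock factor itself, averaged 24.2 ± 1.99 CPM (SD) over the WT VEH hearts, 24.2 ± 1.31 over WT JZL184, 24.9 ± 1.87 over CD VEH and 25.4 ± 1.70 over CD JZL184. Its log2 fold-change was 0.04 (SE 0.09, edgeR adjusted p = 0.735) in the genotype comparison, and of the 4 genes tested that encode heat shock factors or their binding partners, 0 were called by edgeR, 0 by DESeq2 and 0 had an unadjusted p under 0.05 in each of 3 comparisons (genotype, WT drug and CD drug). The transcript level of Hsf1 says nothing of its activity, which is set by trimer formation and phosphorylation. The cytosolic chaperonin, a ring of CCT subunits that folds actin and tubulin, had 0 of 7 genes called in each of them by edgeR, 0 by DESeq2 and 0 at an unadjusted p under 0.05.

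Of the 10 genes of mitochondrial protein quality control, 6 were lower and 0 higher in CD VEH than in WT VEH, 6 were lower and 0 higher in WT JZL184 than in WT VEH, and 6 were higher and 0 lower in CD JZL184 than in CD VEH. The list medians were -0.27, -0.27 and 0.23 on the log2 scale. With the offset for transcript length, 5 and 6 of the 10 were lower and 7 higher in the same order. The protease Lonp1 averaged 118 ± 5.36 CPM (SD) over the WT VEH hearts, 95.8 ± 6.20 over WT JZL184, 98.5 ± 9.46 over CD VEH and 129.8 ± 2.87 over CD JZL184. Its log2 fold-change was -0.26 (SE 0.08, edgeR adjusted p = 0.0342) by genotype and 0.40 (SE 0.08, edgeR adjusted p = 0.00387) by drug in CD hearts. Afg3l2, a protease of the inner membrane, and Dnaja3, a J-domain protein of the matrix, fell by 0.36 (edgeR adjusted p = 0.0142) and by 0.29 (0.0171) on the log2 scale in the genotype comparison. They rose by 0.34 (0.0101) and 0.24 (0.0183) in the CD drug comparison. In the WT drug comparison the log2 fold-changes were -0.30 (edgeR adjusted p = 0.0200) for Lonp1, -0.33 (0.0206) for Afg3l2 and -0.37 (0.00636) for Dnaja3. The CD VEH mice enter 2 of these comparisons and the WT VEH mice 2, so a deviation of either group moves them together.

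Among co-chaperones, which connect HSP70 and HSP90 to their clients, 2 of 20 genes were higher and 2 lower in CD VEH than in WT VEH, 2 higher and 3 lower in WT JZL184, and 2 higher and 3 lower in CD JZL184 than in CD VEH. With the length offset these counts were 2 and 3, 0 and 7, and 4 and 3. Bag3, which couples HSP70 and small heat shock proteins to autophagy of damaged sarcomere proteins, had 131 and 139 CPM in WT VEH, 117, 91.1 and 110.1 CPM in WT JZL184, 82.9, 106 and 86.0 CPM in CD VEH, and 114, 110.4 and 115 CPM in CD JZL184. Both WT VEH mice stood above every other mouse. It fell in CD VEH (-0.56, SE 0.11, edgeR adjusted p = 0.00633) and in WT JZL184 (-0.35, SE 0.11, edgeR adjusted p = 0.0392), and was higher in CD JZL184 than in CD VEH (0.30, SE 0.10, edgeR adjusted p = 0.0399). Bag2 fell by 0.34 (edgeR adjusted p = 0.0110) in CD VEH and rose by 0.37 (0.00446) after JZL184 in CD hearts. Bag5 was opposite to it (0.23, edgeR adjusted p = 0.0265, and -0.31, edgeR adjusted p = 0.00400). In the WT drug comparison their log2 fold-changes were -0.36 (edgeR adjusted p = 0.00855) for Bag2 and 0.20 (0.0479) for Bag5. Stip1, the adaptor between HSP70 and HSP90, had log2 fold-changes of -0.25 (edgeR adjusted p = 0.117) by genotype and 0.11 (0.428) by drug in CD hearts.

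Of 9 other HSP70 and HSP110 genes, 4 were lower and 1 higher in CD VEH than in WT VEH, 3 lower and 1 higher in WT JZL184, and 3 higher and 0 lower in CD JZL184 than in CD VEH. In CD VEH, 2 rather than 4 were lower with the length offset. Hspa4, an HSP110, averaged 141 ± 1.35 CPM (SD) over the WT VEH hearts, 106 ± 5.45 over CD VEH and 129 ± 1.99 over CD JZL184. The corresponding log2 fold-changes were -0.41 (SE 0.09, edgeR adjusted p = 0.00830) by genotype and 0.29 (SE 0.08, edgeR adjusted p = 0.0195) by drug in CD hearts. Among 15 J-domain genes, 5 were lower and 2 higher in CD VEH, 4 lower and 0 higher in WT JZL184, and 3 higher and 2 lower in CD JZL184 than in CD VEH. The length offset left 0 higher and 6 lower in CD VEH. Dnajb14, a J-domain protein of the endoplasmic reticulum membrane, fell by 0.52 (SE 0.07, edgeR adjusted p = 0.00171) in CD VEH and rose by 0.31 (SE 0.06, edgeR adjusted p = 0.00457) after JZL184 in CD hearts. Dnajc19, a short transcript of the mitochondrial import motor, moved the other way (0.32, edgeR adjusted p = 0.0256, and -0.46, edgeR adjusted p = 0.00352). In the WT drug comparison they had log2 fold-changes of -0.38 (edgeR adjusted p = 0.00400) and 0.23 (0.0895).

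Of the 6 small heat shock proteins of muscle, 2 were lower and 1 higher in CD VEH, 1 lower and 0 higher in WT JZL184, and 1 higher and 0 lower in CD JZL184 than in CD VEH. With the length offset, 4 were lower and 0 higher in CD VEH, 5 lower and 0 higher in WT JZL184, and 4 higher and 0 lower in CD JZL184 than in CD VEH. Hspb8, the partner of BAG3, averaged 421 ± 1.46 CPM (SD) over the WT VEH hearts, 324 ± 21.8 over CD VEH and 384 ± 5.40 over CD JZL184, with log2 fold-changes of -0.38 (SE 0.09, edgeR adjusted p = 0.00899) by genotype and 0.25 (SE 0.08, edgeR adjusted p = 0.0289) by drug in CD hearts. Hspb7, an abundant heart small heat shock protein, fell by 0.25 (SE 0.08, edgeR adjusted p = 0.0421) in CD VEH, and Hspb2 rose by 0.18 (SE 0.06, edgeR adjusted p = 0.0274). In the WT drug comparison the log2 fold-change was -0.31 (edgeR adjusted p = 0.0174) for Hspb7 and -0.24 (0.0562) for Hspb8.

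In the endoplasmic reticulum, 3 of 15 chaperone genes (Hyou1, Dnajc3 and Dnajb9) were lower and 0 higher in CD VEH than in WT VEH. By edgeR and by DESeq2, 0 of the 15 were called in the WT drug comparison or in the CD drug comparison, where 0 and 1 had an unadjusted p under 0.05. In the treated genotype comparison, 5 were lower and 0 higher in CD by edgeR, beside 38.3% of all genes called in either direction. There 4 were lower by DESeq2 and 2 with the length offset. Hyou1, an HSP110 of that compartment, fell by 0.63 (SE 0.18, edgeR adjusted p = 0.0234) in CD VEH. Of 7 regulators of the unfolded protein response, 0 were higher and 2 lower in CD VEH, 0 were called in WT JZL184 by edgeR (1 by DESeq2, and 1 at an unadjusted p under 0.05), and 3 were higher and 1 lower in CD JZL184 than in CD VEH. Under the length offset, 3 were lower in CD VEH, and 3 higher and 0 lower in CD JZL184 than in CD VEH. The sensor Atf6 fell by 0.59 (SE 0.14, edgeR adjusted p = 0.0114) in CD VEH and rose by 0.56 (SE 0.13, edgeR adjusted p = 0.00811) after JZL184 in CD hearts.

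Immediate early genes, which are induced within minutes by stress and by handling of tissue, were listed for comparison. Of 16 tested, 6 were higher and 0 lower in CD VEH than in WT VEH, 1 higher and 0 lower in WT JZL184, and 0 higher and 7 lower in CD JZL184 than in CD VEH. With the length offset, 4 were higher and 1 lower in CD VEH, and 0 were called in WT JZL184. Their summed level was 614 CPM in CD VEH A, 458 CPM in CD VEH C and 516 CPM in CD VEH E, and between 371 and 410 CPM in WT VEH, 394 and 511 CPM in WT JZL184, and 381 and 414 CPM in CD JZL184. The immediate early gene Jun, picked out with its value known, was among the 10 genes most like the Hspa1 pair over the 11 mice (r = 0.78). The summed list did not follow the pair in each mouse. CD VEH C had the highest sum of the pair (131 CPM) and the lowest list sum of its group. CD JZL184 A and E had pair sums of 85.5 and 80.8 CPM beside list sums of 381 and 414 CPM. The part of tissue handling in the Hspa1 values was not tested.

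**Figure D5:**
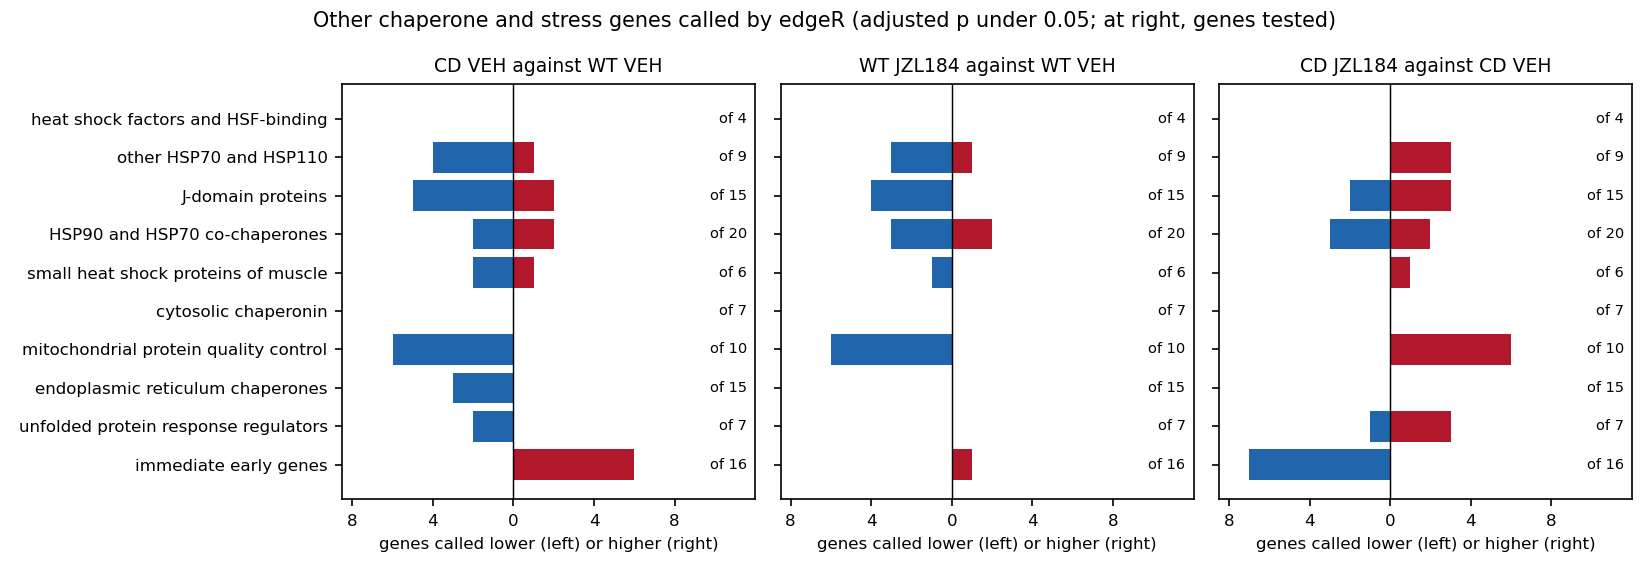
Number of genes called lower (left of 0) or higher (right of 0) by edgeR in each list of other chaperone and stress genes, in 3 comparisons, with the number of genes tested at the right of each row. Mitochondrial protein quality control has 6 of 10 genes lower in CD VEH and in WT JZL184 and 6 of 10 higher in the CD drug comparison, and heat shock factors and the cytosolic chaperonin have 0.

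The genes whose pattern over the 11 mice was most like the mean of the 10 members, each standardised, were Nqo2 (Pearson r = 0.90), Nol8 (0.89), Msrb2 (0.89), Fahd1 (0.89), Zmpste24 (0.88), Prpf3 (0.88), Cct7 (0.88), Hibch (0.88), Nbr1 (0.87) and Zfp59 (0.87). For the Hspa1 pair alone, a profile added after the values were seen, the most similar gene was Ccdc117 (r = 0.91, from 22.9 to 31.7 CPM).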

How the data were processed

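Ventricle RNA of 11 mice was sequenced. Per the labels and the study's methods, the authors quantified transcripts with Salmon 0.7.2 against Ensembl 85 (mm10) and summed them with tximport 1.2.0, and they deposited estimated counts per gene, which are not normalized and were rounded here to whole numbers. Strand settings are not given in the sources used here. Of the 22608 genes, 22315 matched GENCODE M21 by identifier without version, and the groups came from the labels through the column names.

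Genes with an average of at least 1 log2 CPM were kept (11319 genes). Counts were scaled by TMM, and all 4 groups were fitted together with the quasi-likelihood test of edgeR 4.0.16 in R 4.3.3, with contrasts between groups, two-sided p-values and Benjamini-Hochberg adjustment over all genes tested. The common biological coefficient of variation was 9.13%. The scripts were tested on simulated data. Log2 CPM for spread and correlation used a prior count of 2. SDs are between mice, and the depth sets a floor of 3 counts that covers counting error only. Alternatives were DESeq2 1.42.0, RLE and upper quartile factors, no filter, a minimum of 10 counts for each mouse, a fit of the compared groups alone, an offset for transcript length (loess, span 0.5), no mitochondrial genome genes, robust empirical Bayes, a threshold of 0.01, the Hspa1 genes summed, each mouse left out and, added after seeing the data, the letter of the column name as a block.

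The members, the gene lists and the tests were chosen with earlier results of these data known. Named were the 10 members, up to 3 genes per list with the lowest adjusted p in the genotype or JZL184 comparisons, Hsf1, Bag3 and Stip1, and the 10 genes most like the mean of the members. Ccdc117, Jun and the chaperonin ratio were added with their values known. The files hold no other kind of measurement, and promoter sequences came from RefSeq (GRCm38.p6).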

Additional observations from a re-analysis of the deposited data

Results flagged for a closer look

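The effect of JZL184 differed between CD and WT hearts, by the genotype by JZL184 interaction of the edgeR fit, for 3 of the 10 chaperones, against 51.5% of all genes tested. The interaction is the log2 effect in CD hearts minus that in WT hearts. It was 0.44 for Hsp90ab1, 0.51 for Hspd1 and -0.53 for Hspe1. Without WT VEH mouse D, the calls of Hsp90ab1 (edgeR adjusted p = 0.163) and Hspd1 (0.0903) were lost, as they were without CD VEH mouse A (0.0668 and 0.0558) and, for Hsp90ab1, in 4 other fits that left out 1 mouse. With the offset for transcript length it was 0.58 for Hsp90ab1, 0.66 for Hspd1 and -0.035 for Hspe1.

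Of 31 other genes named from the chaperone and stress lists, 21 had an interaction with an edgeR adjusted p under 0.05 (from 0.000236 to 0.0434), beside the same 51.5% of all genes. Most of them were named for a low p in comparisons whose groups also enter the interaction, so this count is no independent result. It was positive for Atf6 (0.92), Hspa12a (0.82), Bag2 (0.73), Lonp1 (0.70), Dnajb14 (0.69), Hspa4 (0.68), Afg3l2 (0.68), Bag3 (0.65), Ern1 (0.65), Hyou1 (0.65), Dnaja3 (0.62), Hspb7 (0.51), Hspb8 (0.48) and Hsf2 (0.34). It was negative for Ier2 (-1.16), Klf2 (-0.98), Klf4 (-0.86), Hspa12b (-0.76), Dnajc19 (-0.68), Bag5 (-0.51) and Atf4 (-0.37).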

How the results depend on the processing

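The 39 member results gave 694 alternative values, of which 613 kept their direction and side of the threshold, 36 kept the direction and lost the call, 21 gained a call and 24 reversed. In the genotype comparison, 2 members were called, 4 with DESeq2, 4 with only the compared groups (Dnajb1, Hsp90ab1, Hspd1 and Hspe1) and 0 at a threshold of 0.01. In the WT drug comparison it was 0, and 1 (Hspd1) with DESeq2 and with the length offset. In the CD drug comparison it was 1, 3 with only the compared groups and 0 with the length offset. In the treated genotype comparison it was 1, 2 with DESeq2, and 0 without a filter, with at least 10 counts, with only the compared groups, with the length offset and at 0.01. The interaction had 3 and, at 0.01, 1. Leaving out each mouse gave 0 to 3, 0 to 2, 1 to 2, 0 to 3 and 1 to 4 in the same order, and CD JZL184 set against WT VEH had 0 throughout. In the genotype comparison the count was 0 without WT VEH C, WT VEH D or CD VEH A and 3 without CD VEH E. Without WT VEH C or D, the lone WT VEH mouse is assumed to vary like the other groups.

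Without a mouse, signs reversed as follows (lowest to highest log2 fold-change). In the genotype comparison, Hsp90aa1 ran from -0.41 to 0.0052 and Hspb1 from -0.43 to 0.053. In the WT drug comparison, Hspa1a ran from -0.61 to 0.53, Hspa1b from -0.45 to 0.62, Hspa8 from -0.29 to 0.0013, Hsph1 from -0.60 to 0.066, Hsp90aa1 from -0.41 to 0.15 and Hspb1 from -0.15 to 0.33. In the CD drug comparison, Hspa1a ran from -0.61 to 0.58, Hspa1b from -0.73 to 0.66 and Hspa8 from -0.042 to 0.11. Hspa8 was -0.0036 there with upper quartile factors. With the length offset, Hspb1 was -0.14 in the WT drug comparison and 0.13 in the CD drug comparison, and Hspe1 was -0.079 in the WT drug comparison and 0.0066 in the treated genotype comparison. Except for Hspe1 in the treated genotype comparison, these results had not been called. The cause was not tested. The columns carry letters, not the replicate numbers of the labels. For mice of different groups with the same letter, r between their deviations from the group means ran from -0.25 to 0.31, over 0.1 in 1 of 8 pairs. In groups this small the deviations are forced to oppose each other, so these values cannot exclude a pairing by letter. The main fit takes the letter as no pairing. With the letter as a replicate block, an alternative chosen after seeing the data, 0 members were called in the genotype comparison and 1 (Hspe1) in the interaction, the other counts were the same (with Hspb1 in place of Hspe1 in the treated genotype comparison), and in the WT drug comparison Hspa1a was -0.16 and Hspa1b -0.16. With 2 WT VEH mice, differences against that group rest on either mouse, and depth was no limit for any member.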
